A study of Mus musculus with 199 samples.

Results

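The phagocyte NADPH oxidase and inducible nitric oxide synthase were described in sorted mouse neutrophils through 7 genes, *Cybb*, *Cyba*, *Ncf1*, *Ncf4*, *Rac2*, *Hvcn1* and *Nos2*. The genes were chosen by name and found by their Ensembl identifiers among the 37713 genes of the deposited table, and all 7 were present. The series profiled liver, tumours, neutrophils and T cells by RNA sequencing in 199 libraries, and 61 of these were of neutrophils. All 61 came from male wild-type C57BL/6 mice of an in-house colony, given the liver carcinogen diethylnitrosamine and the ALIOS diet, which is rich in fat and sugar (DEN ALIOS), so every group carried the disease model and none was of healthy mice. Liver neutrophils came from mice treated with an antibody to PD-1 (aPD1, 5 libraries), with an inhibitor of the chemokine receptor CXCR2 (CXCR2i, 10), with both (the combination, 8) or untreated (6), and blood neutrophils from the same groups (5, 10, 10 and 7). Of the libraries grouped as CXCR2i, 8 were labelled as also given the isotype control of aPD1, and 3 of the untreated ones were labelled Vehicle. The age of the mice was not given in the sources used here, the titles call the tissue source liver, and the protocol in the labels names tumours and blood.

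The phagocyte oxidase moves electrons from NADPH across a membrane onto oxygen and so makes superoxide, the first product of the respiratory burst with which neutrophils attack microbes. Its membrane core is made of gp91phox, encoded by *Cybb* (also called *Nox2*), and p22phox, encoded by *Cyba*. On activation p47phox (*Ncf1*) and p40phox (*Ncf4*) join it from the cytosol together with the GTPase Rac2, and the proton channel encoded by *Hvcn1* balances the charge that the electrons carry. Inducible nitric oxide synthase, encoded by *Nos2*, makes nitric oxide from arginine with NADPH as electron donor, and its gene is induced by microbial products and by interferon gamma in mouse macrophages.

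On GRCm38 *Cybb* lies on chromosome X from 9435252 to 9487771 on the minus strand, *Cyba* on chromosome 8 from 122424776 to 122432930 (minus), *Ncf1* on chromosome 5 from 134220053 to 134229625 (minus) and *Ncf4* on chromosome 15 from 78244801 to 78262580 (plus). *Rac2* lies on chromosome 15 from 78559167 to 78572783 (minus), *Hvcn1* on chromosome 5 from 122206804 to 122242297 (plus) and *Nos2* on chromosome 11 from 78920787 to 78960254 (plus). Annotated genes on the opposite strand overlap *Cyba* (*Gm20388*), *Ncf1* (*Gtf2ird2*) and *Hvcn1* (*Tctn1*). The library kit kept strand, but how the counting treated strand was not given in the sources used here. Reads of these overlapping pairs may not be fully told apart.

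The 250 bases before the RefSeq start (GRCm38.p6) are shown for *Cybb*, the member with the lowest adjusted p between combination and untreated livers, and for *Ncf1*, a partner not called there, both on the minus strand and read 5′ to 3′. The window is chrX:9469325-9469574 for *Cybb* and chr5:134229626-134229875 for *Ncf1*. Capitals mark matches on either strand to GAAA followed after any 2 bases by GAAA, the core of the element bound by interferon regulatory factors, and to CCAAT.
Cybb promoter: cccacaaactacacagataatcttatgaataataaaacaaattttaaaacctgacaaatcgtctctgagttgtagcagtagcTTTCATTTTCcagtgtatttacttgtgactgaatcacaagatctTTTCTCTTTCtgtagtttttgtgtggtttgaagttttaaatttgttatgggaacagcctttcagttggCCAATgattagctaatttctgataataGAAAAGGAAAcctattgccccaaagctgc
Ncf1 promoter: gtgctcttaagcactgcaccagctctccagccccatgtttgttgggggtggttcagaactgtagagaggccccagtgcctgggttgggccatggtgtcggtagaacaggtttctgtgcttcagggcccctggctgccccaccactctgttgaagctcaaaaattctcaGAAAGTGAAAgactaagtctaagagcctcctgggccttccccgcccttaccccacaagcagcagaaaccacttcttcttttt
The *Cybb* window held 3 matches to the paired GAAA motif, whose first bases lie 168, 124 and 29 bases before the start, and 1 CCAAT match 56 bases before it. The *Ncf1* window held 1 match to the paired GAAA motif, 82 bases before the start. The paired GAAA motif was present in 3.04% and CCAAT in 34.5% of 27025 promoters of the same length, and the third motif searched, GAGGAA, was in 23.1% of them and in neither of these windows. Matches did not overlap each other. The motifs were chosen after the sequences had been read, a match describes letters only, and the table of RefSeq promoters matched 3 of the 7 members, *Cybb*, *Cyba* and *Ncf1*.

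Liver neutrophil libraries held 580113 to 8603634 gene counts (median 4917548) and blood neutrophil libraries 950488 to 9256224 (median 6395179). Levels below are counts scaled to 1000000 per library with TMM factors of the 61 libraries (CPM). Fold changes are on the log2 scale, with ± giving the standard error, and come from quasi-likelihood fits of all genes in edgeR. A gene was called, and is said to have risen or fallen, at an adjusted p (Benjamini-Hochberg) under 0.05. In bulk RNA a lower level from fewer expressing cells and one from less RNA per cell cannot be told apart. Sequencing runs named in the labels form 4 run sets, A to D, with all untreated libraries in A and all aPD1 libraries in B. Run set was therefore a term in fits between treatments, so a fitted change can differ from the ratio of group means, while liver and blood of each of 29 animals shared a run set and were compared within animals, which are numbered here by their liver library.

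The sort was checked against marker genes. All 9 neutrophil markers were detected in all 8 groups, and their summed level was 18120 to 52600 CPM over the blood libraries. In liver it was lower in some libraries, and 4 of them, untreated replicates 2 and 5 and aPD1 replicates 2 and 4, had *Cd3e*, a T cell gene, above 20 CPM although the labels give a flow purity of at least 97%. In these 4 the neutrophil markers summed to 2761, 14720, 4581 and 790 CPM, and 8 T and NK cell markers to 231.5, 249, 308 and 620 CPM. A further 2 libraries, liver combination replicate 2 and blood untreated replicate 1, had under 1000000 gene counts. These 6 are called the doubted libraries below, and members' calls were checked without them. In fits within animals, leaving out 1 library of an animal also left out the other. This removed untreated animals 1, 2 and 5, aPD1 animals 2 and 4 and combination animal 2. Some neutrophil markers were called between sites too: in liver against blood 3 of 9 fell in aPD1 mice, 2 fell and 1 rose in CXCR2i mice, 2 fell and 4 rose in combination mice and 4 fell and 1 rose in untreated mice. Of all genes 40.7%, 48.6%, 49.2% and 30.3% were called in these comparisons, in the same order. Called lower were 13.2%, 22.4%, 23.9% and 9.17%, and called higher 27.5%, 26.2%, 25.3% and 21.1%. The median log2 difference of the 9 markers was -2.16, 0.12, 0.31 and -1.39 in this order. The part of these marker shifts in the results below was not tested beyond leaving libraries out.

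*Cybb*, *Ncf1*, *Ncf4* and *Cyba* were higher in neutrophils than in the 73 T cell libraries of the same series, on plain CPM. *Cybb* had a median of 254 CPM in neutrophils and 31.6 CPM in T cells, *Cyba* 186 and 62.6 CPM, *Ncf1* 877 and 31.3 CPM and *Ncf4* 253 and 38.4 CPM. *Rac2*, which is a GTPase of blood cells in general, had medians of 796 CPM in neutrophils and 422 CPM in T cells. *Hvcn1* ran the other way, with 7.88 CPM in neutrophils and 57.4 CPM in T cells, and *Nos2* had 3.71 CPM in neutrophils and 0 CPM in T cells. These medians pool liver and blood. By group, *Hvcn1* medians in neutrophils and T cells were 45.5 and 48.9 CPM in combination livers and 15.2 and 58.1 in untreated livers. In combination blood they were 5.03 and 54.1 CPM. *Rac2* medians were 483 and 480 CPM in untreated livers, 826 and 477 in combination livers and 932 and 394 in untreated blood. By their titles, some T cell libraries came from mice without the disease model, unlike all the neutrophil libraries. They were labelled PBS (8 of blood and 8 of liver) or CXCR2i (6 and 6). The medians describe the libraries and were not tested.

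Per kilobase of annotated exon *Cybb*, the catalytic subunit, stood at different places among the 7 genes in different groups. In liver neutrophils of the combination the mean CPM per kilobase was 407 for *Ncf1*, 273 for *Cybb*, 253 for *Rac2*, 228 for *Cyba*, 151 for *Ncf4*, 13.3 for *Hvcn1* and 4.73 for *Nos2*. In liver neutrophils of untreated mice it was 385 for *Ncf1*, 166 for *Rac2*, 113 for *Ncf4*, 106 for *Cyba*, 34.0 for *Cybb*, 4.86 for *Hvcn1* and 0.494 for *Nos2*. In blood neutrophils of untreated mice *Rac2* led with 314 CPM per kilobase, and *Cybb* had 16.3. Of these 3 groups, *Cybb* was the second of the 7 in combination livers and the fifth in untreated livers and untreated blood. The lengths count each annotated exonic base once, so they overstate transcripts that use fewer exons.

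**Figure D1:**
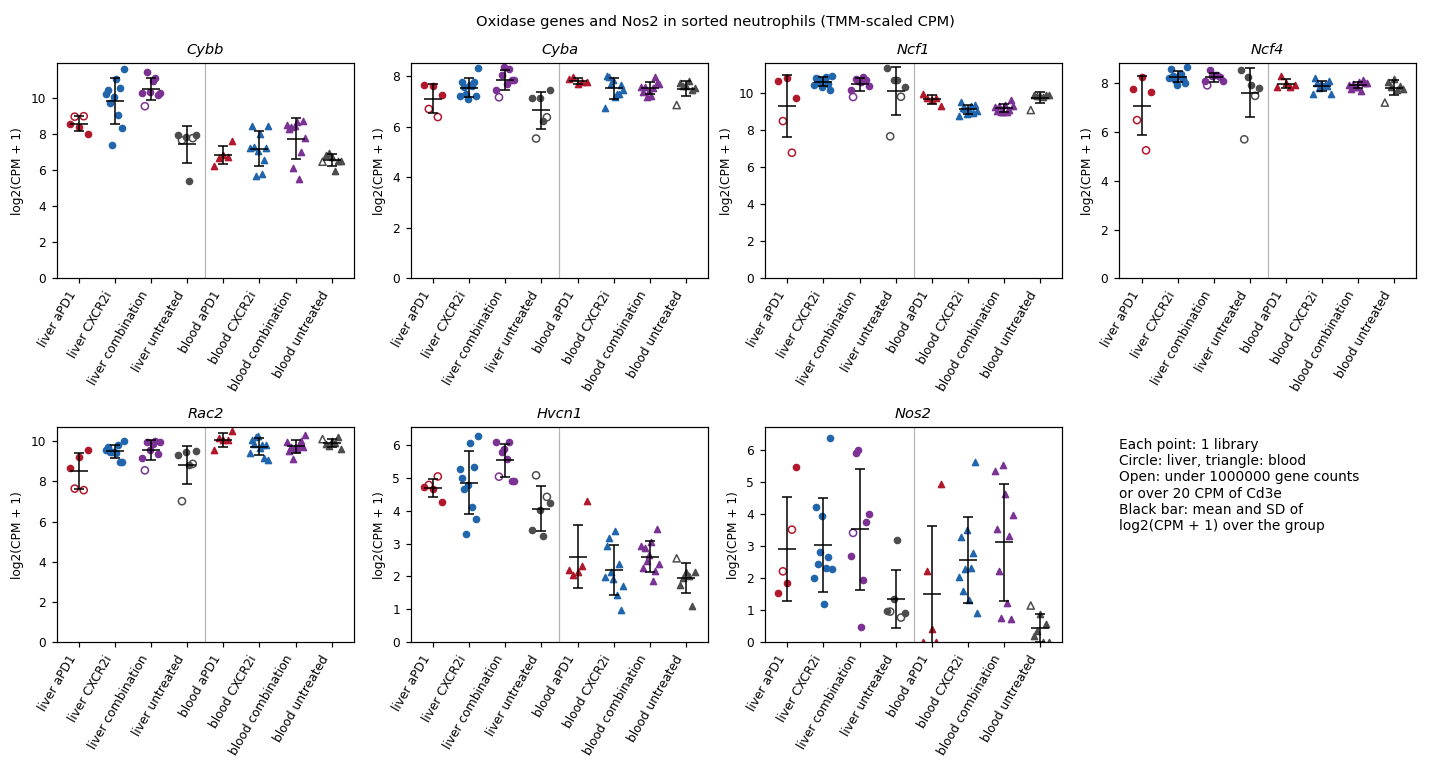
Levels of the 7 genes in each neutrophil library as log2(CPM + 1), liver groups left of the grey line and blood groups right of it, with the black bars giving mean and SD of the group on this scale and open symbols the 6 doubted libraries. *Cybb* and *Hvcn1* sit higher in liver than in blood, *Cybb* averages 1587 CPM in combination livers and 198 CPM in untreated livers, and the open circles of the mixed livers lie low for *Ncf1*, *Ncf4* and *Rac2*.

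Liver neutrophils were compared with blood neutrophils of the same animals within each treatment. In aPD1 mice 2 members rose and 1 fell of 7, against 40.7% of 13571 genes called, 27.5% higher and 13.2% lower. In CXCR2i mice 5 of 7 members rose and none fell, against 48.6% of 11714 genes called, 26.2% higher and 22.4% lower. In combination mice 3 of 7 members rose and none fell, against 49.2% of 12256 genes called, 25.3% higher and 23.9% lower. In untreated mice 2 of the 6 members tested rose in liver and none fell, where 30.3% of 12229 genes were called, 21.1% higher and 9.17% lower. *Cybb* and *Hvcn1* rose in each of the 4 comparisons. The median log2 difference over the tested members was -0.21, 0.53, 0.69 and 0.15 in aPD1, CXCR2i, combination and untreated mice, and over all tested genes it was 0.44, 0.04, -0.02 and 0.14.

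**Figure D2:**
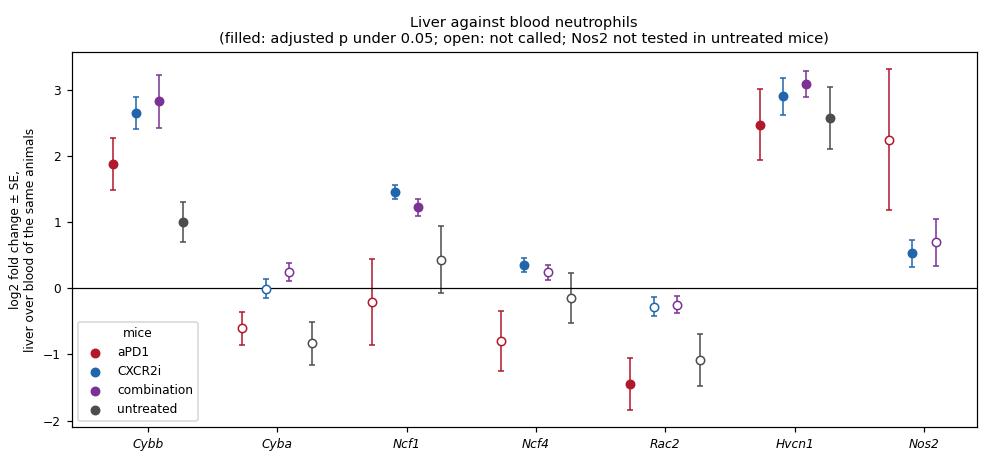
Log2 fold change ± SE of each member in liver over blood neutrophils of the same animals, by treatment, filled where the adjusted p was under 0.05. *Cybb* lies at 2.83 in combination and 1.00 in untreated mice and *Hvcn1* between 2.47 and 3.09, while the *Rac2* values all lie below 0.

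Treated mice were compared with untreated mice within each site, and the 3 treatments share the untreated libraries. In liver, 4 of 7 members rose in the combination, *Cybb*, *Cyba*, *Hvcn1* and *Nos2*, where 9.87% of 13878 genes were called, 4.92% higher and 4.95% lower. In CXCR2i livers none of the 7 was called, with 17 of 13878 genes (0.122%) called by edgeR, 1 member and 2090 genes at an unadjusted p under 0.05, and 1 member and 350 genes called by DESeq2. The aPD1 comparison called none of the 7 and 0% of all genes by edgeR, with 1 member and 775 genes at an unadjusted p under 0.05 and 0 members and 2 genes called by DESeq2. The combination against aPD1 called none of the 7 and 28 genes (0.202%), with 3 members and 1283 genes at an unadjusted p under 0.05 and 0 members and 153 genes by DESeq2. The combination against CXCR2i called none of the 7 and 0% of genes, with 0 members and 539 genes at an unadjusted p under 0.05 and 0 members and 1 gene by DESeq2.

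In blood, *Cybb* and *Nos2* rose and *Ncf1* fell in the combination, where 12.5% of 11671 genes were called, 5.72% higher and 6.77% lower. In CXCR2i mice *Ncf1* alone among the 7 fell, where 6.53% of genes were called and 3.42% were called lower. The aPD1 comparison called none of the 7 and 0% of genes by edgeR, with 1 member and 1020 genes at an unadjusted p under 0.05 and 0 members and 23 genes by DESeq2. The combination against aPD1 called none of the 7 and 2 genes (0.0171%), with 1 member and 1201 genes at an unadjusted p under 0.05 and 0 members and 136 genes by DESeq2. The combination against CXCR2i called none of the 7 and 0% of genes, with 0 members and 711 genes at an unadjusted p under 0.05 and 0 members and 28 genes by DESeq2.

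The difference between liver and blood was also compared between treatments, in 1 fit of the 29 animals with 14900 genes. For the combination against untreated mice *Cybb* alone among the 7 was called, and higher, where 1.81% of genes were called and 1.24% higher. None of the 7 was called for CXCR2i against untreated, where edgeR called 0.188% of genes. There 4 members and 1941 genes had an unadjusted p under 0.05, and DESeq2 called 1 member and 441 genes. For the combination against aPD1 none of the 7 was called, where edgeR called 2.48% of genes. There 4 members and 2433 genes had an unadjusted p under 0.05, and DESeq2 called 3 members and 1202 genes. None was called for aPD1 against untreated or for the combination against CXCR2i either (0% of genes in both by edgeR; 0 members at an unadjusted p under 0.05 and 0 by DESeq2 in both). The 809 and 731 genes at an unadjusted p under 0.05 in those last comparisons compare with 2 and 0 genes called by DESeq2.

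**Figure D3:**
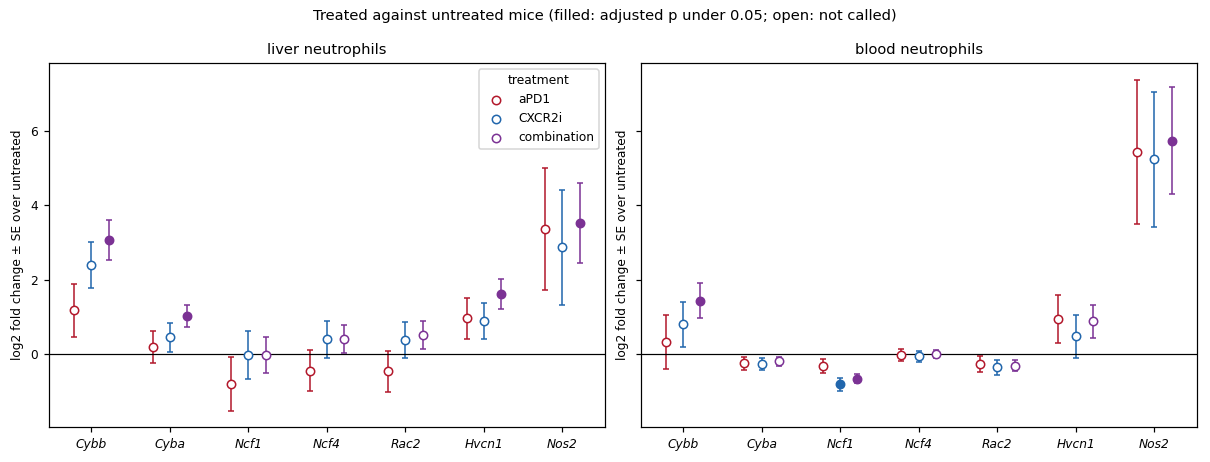
Log2 fold change ± SE of each member in treated over untreated mice, liver left and blood right, filled where the adjusted p was under 0.05. In liver the combination values of *Cybb* (3.07), *Nos2* (3.52), *Hvcn1* (1.61) and *Cyba* (1.02) are filled, and in blood *Cybb* (1.43) and *Nos2* (5.75) are filled for the combination and *Ncf1* is filled below 0 for CXCR2i and the combination.

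*Cybb*, the catalytic subunit, was highest in liver neutrophils of combination and CXCR2i mice. In liver it had 380, 500, 340, 509 and 253 CPM in aPD1 replicates 1 to 5, a median of 1134 CPM in CXCR2i (lowest 168, highest 3168), a median of 1266 CPM in the combination (747 to 2818) and a median of 225 CPM in untreated mice (40.9 to 249). In blood it had 74.2, 101, 114, 106 and 199 CPM in aPD1 replicates 1 to 5, a median of 148 CPM in CXCR2i (50.2 to 354), a median of 322 CPM in the combination (45.4 to 426) and a median of 88.5 CPM in untreated mice (60.5 to 120). Every combination liver library lay above every aPD1 and every untreated liver library and above every combination blood library, and the aPD1 livers lay above the untreated livers and the aPD1 bloods. The CXCR2i livers spread over an 18.8-fold range and overlapped all other liver groups.

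Ordered by mean, *Cybb* stood at 1587 ± 692 CPM in combination livers, 1233 ± 899 in CXCR2i livers and 396 ± 109 in aPD1 livers. Below these came 265 ± 140 CPM in combination blood, 198 ± 78.8 in untreated livers, 174 ± 110 in CXCR2i blood, 119 ± 47.1 in aPD1 blood and 94.6 ± 19.9 in untreated blood (SD; n = 8, 10, 5, 10, 6, 10, 5 and 7 in this order). No neighbours in this order differed by more than the larger of their SDs.

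Liver *Cybb* exceeded blood *Cybb* in 28 of 29 animals, with median ratios of 4.78 in aPD1, 8.07 in CXCR2i, 6.92 in combination and 2.35 in untreated mice. The fitted differences were 1.88 ± 0.39 in aPD1 (adjusted p = 0.0158), 2.655 ± 0.24 in CXCR2i (adjusted p = 1.18e-06), 2.83 ± 0.40 in the combination (adjusted p = 0.000393) and 1.00 ± 0.30 in untreated mice (adjusted p = 0.0246). The exception was untreated animal 4, whose liver held 0.676 times the level of its blood. The CXCR2i and combination calls held under every alternative run. The untreated call was lost without animal 3 (adjusted p = 0.0639), 5 (0.0674) or 6 (0.0819) and without the doubted libraries (0.86, adjusted p = 0.121), and the aPD1 call without animal 1, 2 or 3 (highest adjusted p = 0.0681). Without the doubted libraries the aPD1 value was 1.44 and at the threshold (adjusted p = 0.04996, 3 animals).

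Between treatments, *Cybb* in liver was 3.07 ± 0.53 higher in the combination than in untreated mice (adjusted p = 0.001), and this call held in all 8 other settings and in all 29 left-out refits. Within run set A alone the difference was 3.01 ± 0.46 (adjusted p = 0.00223), and without the doubted libraries it was 3.27 (adjusted p = 0.00379). CXCR2i livers differed from untreated livers by 2.39 ± 0.62 without passing (adjusted p = 0.0879), with a 95% interval of 1.17 to 3.61, and passed by DESeq2 (adjusted p = 0.0274) and without the run set term (0.00274). Run set A holds 1 CXCR2i library, so no within-set value was available for that pair. aPD1 livers differed from untreated livers by 1.18 ± 0.715 (adjusted p = 0.785), and all aPD1 libraries lie in another run set than the untreated ones. The combination livers differed from aPD1 livers by 1.89 ± 0.58 (adjusted p = 0.204), by 1.91 ± 0.55 within run set B (adjusted p = 0.156), and passed without the run set term (adjusted p = 0.0215).

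In blood *Cybb* was 1.43 ± 0.47 higher in the combination than in untreated mice (adjusted p = 0.047). This call lay at the threshold. Within run set A it was 1.47 ± 0.45 (adjusted p = 0.0563), and it was lost on leaving out any of the 7 untreated libraries, combination replicate 1, 2, 3, 5, 6, 9 or 10, aPD1 replicate 1, 2, 3 or 4 or CXCR2i replicate 1, 3 or 5 (adjusted p from 0.014 to 0.102 over 32 refits), and without the doubted libraries it was 1.43 with an adjusted p of 0.0636. The excess of liver over blood was 1.86 ± 0.49 larger in combination than in untreated animals (adjusted p = 0.0397). It was 2.08 with an adjusted p of 0.121 without the doubted libraries and 1.92 with an adjusted p of 0.118 without the libraries labelled Vehicle or isotype. For CXCR2i against untreated animals the same difference was 1.65 and not called (adjusted p = 0.0978).

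Macrophages and monocytes also express *Cybb*, and their markers moved with site. Of 12 macrophage and monocyte markers 9 of 11 tested rose in liver over blood in aPD1, CXCR2i and untreated mice (1 fell in CXCR2i mice) and 8 of 10 in combination mice. Of all genes 27.5%, 26.2%, 21.1% and 25.3% were called higher in these comparisons, in the same order. The summed level of the 12 markers was 861 to 2051 CPM in aPD1 livers, 201 to 766 in CXCR2i livers, 127 to 1107 in combination livers and 268 to 735 in untreated livers, and 408 to 500, 287 to 558, 300 to 520 and 348 to 535 CPM in blood of those groups. The blood sums are mostly *Csf1r* and *Adgre1*, which averaged 208 ± 56.5 and 76.4 ± 23.8 CPM in untreated livers and 317 ± 57.9 and 99.04 ± 18.3 CPM in untreated blood, neither called. The tissue macrophage gene *Cd5l* averaged 85.9 ± 70.65 CPM in combination livers and 0.528 ± 1.57 in combination blood, and 54.1 ± 46.6 CPM in untreated livers and 0.0152 ± 0.0403 in untreated blood. *Clec4f*, *Vsig4*, *Marco* and *C1qa* were at 0 in every untreated blood library. Between combination and untreated livers the median difference of the 12 markers was -0.30, and the lowest adjusted p by edgeR was 0.121 (*Vsig4*). Of the neutrophil markers 2 of 9 rose in combination livers against untreated ones, where 4.92% of all genes were called higher. They were *Ly6g*, the gene of the antigen used for sorting, with 135 ± 42.0 and 15.4 ± 13.0 CPM (3.16 ± 0.74, adjusted p = 0.0104), and *Mmp8* (2.41 ± 0.63, adjusted p = 0.0176). The part of these markers in *Cybb* was not tested.

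*Cyba*, the partner of gp91phox in the membrane, varied far less. In liver it had 200, 103.5, 195.5, 82.8 and 151 CPM in aPD1 replicates 1 to 5, a median of 193 CPM in CXCR2i (135 to 320), 232 CPM in the combination (143 to 333) and 111 CPM in untreated mice (45.4 to 177). Blood levels were 236, 253, 204, 216 and 219 CPM in aPD1 replicates 1 to 5, a median of 186 CPM in CXCR2i (107 to 259), 189 CPM in the combination (144 to 249.8) and 195.5 CPM in untreated mice (115.5 to 222). The aPD1 livers all lay below the aPD1 bloods, and the other pairs of liver and blood overlapped.

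By mean *Cyba* ran from 237 ± 64.4 CPM in combination livers through 225.5 ± 19.2 in aPD1 blood, 193 ± 54.0 in CXCR2i livers, 189 ± 49.5 in CXCR2i blood, 187 ± 31.9 in combination blood and 185 ± 34.5 in untreated blood to 146.5 ± 52.9 in aPD1 livers and 110 ± 50.1 in untreated livers, with no neighbours apart by more than an SD. None of the 4 comparisons of liver with blood called it, and liver was higher in 11 of 29 animals. The values were -0.61 ± 0.25 in aPD1 (adjusted p = 0.0853), -0.01 ± 0.15 in CXCR2i (adjusted p = 0.977), 0.25 ± 0.14 in the combination (adjusted p = 0.151) and -0.83 ± 0.32 in untreated mice (adjusted p = 0.0668). Without the doubted libraries they were -0.26 in aPD1 (adjusted p = 0.255) and -0.565 in untreated mice (adjusted p = 0.159).
In liver *Cyba* rose by 1.02 ± 0.30 in the combination over untreated mice (adjusted p = 0.0313). The call was lost without untreated replicate 4 or 5 or combination replicate 3 or 4 (highest adjusted p = 0.0863) and within run set A (1.09 ± 0.32, adjusted p = 0.0758), and it held without the doubted libraries (0.845, adjusted p = 0.0226). In blood the same comparison gave -0.20 ± 0.11 (adjusted p = 0.279).

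*Ncf1*, the organizer subunit p47phox that carries the activating phosphorylation sites, had 1649, 362, 1804, 110 and 847 CPM in aPD1 liver replicates 1 to 5, a median of 1634 CPM in CXCR2i livers (1159 to 1983), 1593 CPM in combination livers (893 to 1884) and 1502 CPM in untreated livers (204 to 2653). Its blood values were 1002, 849, 796, 863 and 636 CPM in aPD1 replicates 1 to 5, a median of 557 CPM in CXCR2i (431 to 753), 588 CPM in the combination (512 to 812) and 943 CPM in untreated mice (548 to 979). The CXCR2i and combination livers lay wholly above their bloods. The low liver values, 362 and 110 CPM in aPD1 and 204 CPM in untreated mice, belong to libraries with T cell transcripts.

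In the order of means the 4 liver groups led, with 1603 ± 269 CPM in CXCR2i, 1490 ± 324.5 in the combination, 1409 ± 827 in untreated and 954 ± 755 in aPD1 mice. The bloods followed with 885 ± 152 CPM in untreated, 828.9 ± 132 in aPD1, 600 ± 94.6 in combination and 567.7 ± 96.2 in CXCR2i mice. Among these neighbours the aPD1 and combination bloods alone lay further apart than the larger SD. Liver exceeded blood in 25 of 29 animals, by 1.46 ± 0.11 in CXCR2i (adjusted p = 3.93e-08) and 1.22 ± 0.13 in combination mice (adjusted p = 5.1e-07), and these calls held under every alternative run.
In aPD1 mice the difference was -0.21 ± 0.66 (adjusted p = 0.802) and in untreated mice 0.43 ± 0.51 (adjusted p = 0.541). Without the doubted libraries it was 0.78 in aPD1 (adjusted p = 0.0386, 3 animals) and 0.87 in untreated mice (adjusted p = 0.0106), so the aPD1 value changed its sign, and without untreated animal 2 alone it was 0.89 (adjusted p = 0.0468).

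In blood *Ncf1* fell with both treatments that include the CXCR2 inhibitor, by 0.82 ± 0.17 on the log2 scale in CXCR2i (adjusted p = 0.00458) and by 0.66 ± 0.12 in the combination (adjusted p = 0.00067) against untreated mice. The combination call held in all 32 left-out refits and in all 8 other settings, and within run set A it was -0.61 ± 0.12 (adjusted p = 0.00508). Without the shallow untreated library the values were -0.89 in CXCR2i (adjusted p = 0.00158) and -0.74 in the combination (adjusted p = 0.000113). The CXCR2i call was lost without CXCR2i replicate 1, the only CXCR2i blood library of run set A (-0.71, adjusted p = 0.0562). In liver *Ncf1* was not called in any of the 5 treatment comparisons, with -0.03 ± 0.49 for the combination against untreated mice and a 95% interval of -0.98 to 0.93.

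*Ncf4*, the p40phox subunit that binds phosphatidylinositol 3-phosphate, was narrow in its range in blood. In liver it had 218.5, 89.0, 306, 37.1 and 201 CPM in aPD1 replicates 1 to 5, a median of 305 CPM in CXCR2i (241 to 404), 312 CPM in the combination (241 to 371) and 232 CPM in untreated mice (51.05 to 370). In blood it had 229.5, 318, 255.5, 230.5 and 243.5 CPM in aPD1 replicates 1 to 5, a median of 241 CPM in CXCR2i (186 to 294.5), 250 CPM in the combination (208 to 278) and 229.5 CPM in untreated mice (147 to 288). All liver and blood groups overlapped, and the low liver values again belong to aPD1 replicates 2 and 4 and untreated replicate 2.

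Means of *Ncf4* ran from 312.5 ± 51.7 CPM in CXCR2i livers and 304 ± 40.8 in combination livers through 255 ± 36.6, 243 ± 21.9, 239 ± 34.0 and 229 ± 44.7 CPM in aPD1, combination, CXCR2i and untreated blood to 228 ± 110 in untreated livers and 170 ± 107 in aPD1 livers. The step between combination livers and aPD1 blood was the only one beyond the larger SD. *Ncf4* rose in liver over blood in CXCR2i mice (0.345 ± 0.11, adjusted p = 0.0123), a call lost without a filter on low counts (adjusted p = 0.0578) and without the isotype libraries (adjusted p = 0.11). It gave 0.24 ± 0.11 in combination (adjusted p = 0.0832), -0.80 ± 0.45 in aPD1 (adjusted p = 0.176) and -0.14 ± 0.38 in untreated mice (adjusted p = 0.799). Without the doubted libraries it gave -0.01 in aPD1 (adjusted p = 0.958) and 0.22 in untreated mice (adjusted p = 0.483). No treatment comparison called it in either site.

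*Rac2*, the GTPase that switches the assembled oxidase on, was lower in liver than in blood in 23 of 29 animals. In liver it had 398, 198, 598, 188 and 753 CPM in aPD1 replicates 1 to 5, a median of 709 CPM in CXCR2i (491 to 1019), 835 CPM in the combination (373 to 1025) and 548 CPM in untreated mice (128 to 720). In blood it had 746.5, 1138, 1070, 1070 and 1463 CPM in aPD1 replicates 1 to 5, a median of 886.5 CPM in CXCR2i (536 to 1204), 828 CPM in the combination (557 to 1246) and 954 CPM in untreated mice (766.5 to 1190). The untreated livers lay wholly below the untreated bloods, and in aPD1 mice 1 liver library, replicate 5, exceeded 1 blood library.

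The order of means put the 4 bloods first, at 1098 ± 255 CPM in aPD1, 974 ± 141 in untreated, 874 ± 232 in CXCR2i and 870.5 ± 187 in combination mice. The livers followed at 784 ± 236 in the combination, 731 ± 163 in CXCR2i, 516 ± 224 in untreated and 427 ± 248 in aPD1 mice, and no neighbours were apart by more than the larger SD. *Rac2* fell in liver against blood in aPD1 mice (-1.45 ± 0.39, adjusted p = 0.0293) and was not called in untreated (-1.085 ± 0.40, adjusted p = 0.0542), CXCR2i (-0.28 ± 0.145, adjusted p = 0.119) or combination mice (-0.25 ± 0.13, adjusted p = 0.127). The aPD1 call was lost without animal 1, 2, 3 or 4 (adjusted p from 0.0252 to 0.102 over 5 refits). Without untreated animal 2, one of the doubted libraries, the untreated value was -0.76 and called (adjusted p = 0.0398). Without all the doubted libraries the values were -0.89 in aPD1 (adjusted p = 0.0145, 3 animals) and -0.45 in untreated mice (adjusted p = 0.198).

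**Figure D4:**
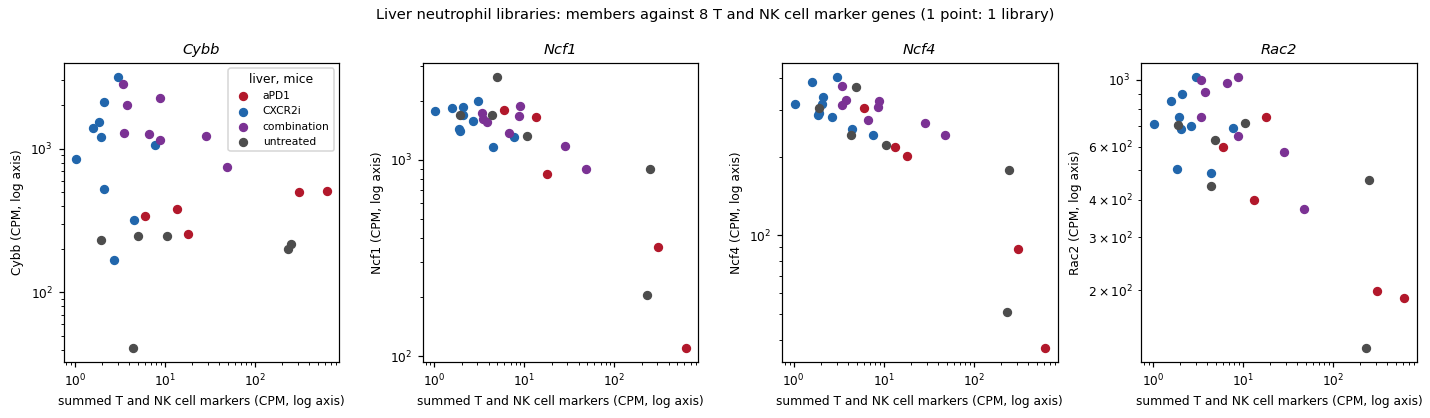
*Cybb*, *Ncf1*, *Ncf4* and *Rac2* in each liver library against the summed level of 8 T and NK cell markers, both on log axes in CPM, with 1 point per library. The 4 libraries with 231.5 to 620 CPM of these markers include the lowest values of *Ncf1*, *Ncf4* and *Rac2*, while their *Cybb* lies between 201 and 509 CPM.

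The T and NK cell markers were highest in some of the aPD1 and untreated livers. They summed to 5.99 to 620 CPM in aPD1 livers, 1.02 to 7.67 in CXCR2i livers, 3.40 to 48.2 in combination livers and 1.92 to 249 in untreated livers, and 7 B cell markers summed to 17.4 to 107, 0.210 to 36.1, 0 to 17.7 and 2.92 to 363 CPM in the same order of groups. In untreated mice 7 of 8 T and NK cell markers and 7 of 7 B cell markers rose in liver over blood, where 21.1% of all genes were called higher. In aPD1 mice the lowest adjusted p over these 15 markers for liver against blood was 0.0605 by edgeR (*Cd4*). Between combination and untreated livers 6 of 7 B cell markers and 1 of 8 T and NK cell markers fell, where 4.95% of all genes were called lower. The part of these markers in the differences of *Ncf1*, *Ncf4*, *Rac2* and *Cyba* was not tested beyond leaving the libraries out.

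*Hvcn1*, the voltage-gated proton channel, was higher in liver than in blood in nearly every animal. In liver it had 25.2, 26.4, 24.0, 31.8 and 18.1 CPM in aPD1 replicates 1 to 5, a median of 28.7 CPM in CXCR2i (8.84 to 76.05), 50.1 CPM in the combination (28.7 to 66.5) and 16.5 CPM in untreated mice (8.39 to 32.6). In blood it had 3.60, 3.14, 3.37, 4.02 and 18.5 CPM in aPD1 replicates 1 to 5, a median of 3.19 CPM in CXCR2i (0.995 to 9.33), 4.90 CPM in the combination (2.63 to 9.81) and 3.07 CPM in untreated mice (1.14 to 4.86). Livers lay wholly above bloods in the combination and in untreated mice, and aPD1 blood replicate 5 stood apart from its group at the level of that animal's liver. That blood library also had the highest B cell and T and NK cell sums of all blood libraries, 171 and 64.6 CPM.

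Means of *Hvcn1* ran from 47.4 ± 16.1 CPM in combination, 33.7 ± 22.1 in CXCR2i, 25.1 ± 4.92 in aPD1 and 17.3 ± 8.79 in untreated livers to 6.53 ± 6.71 in aPD1, 5.38 ± 2.14 in combination, 4.21 ± 2.79 in CXCR2i and 3.01 ± 1.13 in untreated blood. The step between untreated livers and aPD1 blood was the only one beyond the larger SD. Liver exceeded blood in 28 of 29 animals, by 2.47 ± 0.54 in aPD1 (adjusted p = 0.0174), 2.90 ± 0.28 in CXCR2i (adjusted p = 1.14e-06), 3.09 ± 0.20 in combination (adjusted p = 1.53e-09) and 2.575 ± 0.47 in untreated mice (adjusted p = 0.00145). The aPD1 call was lost without animal 1, 2 or 3 (highest adjusted p = 0.0654) and without the doubted libraries (1.82, adjusted p = 0.0982), and the calls in the other treatments held under every alternative run, at 2.13 (adjusted p = 0.00299) in untreated mice without the doubted libraries.
In liver *Hvcn1* rose by 1.61 ± 0.39 in the combination over untreated mice (adjusted p = 0.0122), in all 29 left-out refits, and it narrowly missed the threshold within run set A (1.51 ± 0.40, adjusted p = 0.0503). Without the doubted libraries it was 2.16 (adjusted p = 0.00431). In blood the same comparison gave 0.88 ± 0.43 (adjusted p = 0.197).

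B cells and T cells carry *Hvcn1*, and their markers were set beside it. Combination livers, with the highest *Hvcn1*, had marker sums for B cells of 0 to 17.7 CPM and T and NK cell sums of 3.40 to 48.2 CPM, while untreated livers had 2.92 to 363 and 1.92 to 249 CPM. In untreated livers the highest *Hvcn1* lay in replicates 2 and 5 (32.6 and 20.3 CPM). In aPD1 livers it lay in replicates 4 and 2 (31.8 and 26.4 CPM). These are the libraries with T cell transcripts. Without the doubted libraries mean *Hvcn1* was 12.7, 22.4 and 49.7 CPM in untreated, aPD1 and combination livers. The part of B cells and T cells in *Hvcn1* was not tested.

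*Nos2*, the inducible nitric oxide synthase, was low in most libraries and high in a few. In liver it had 1.88, 3.63, 2.57, 10.4 and 42.7 CPM in aPD1 replicates 1 to 5, a median of 4.85 CPM in CXCR2i (1.29 to 80.8), 11.0 CPM in the combination (0.379 to 63.2) and 0.9645 CPM in untreated mice (0.707 to 8.03). In blood it had 0, 3.67, 0.321, 0 and 29.7 CPM in aPD1 replicates 1 to 5, a median of 3.89 CPM in CXCR2i (0.899 to 47.8), 9.69 CPM in the combination (0.646 to 44.8) and 0.285 CPM in untreated mice (0 to 1.22). The 4 libraries without a count, 2 of aPD1 and 2 of untreated blood, allow up to 0.324 to 0.633 CPM at their depth (3 counts; counting error only). The treated groups overlapped the untreated ones at both sites, and levels under 1 CPM rest on few counts.

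Group means of *Nos2* were smaller than their SDs, at 20.9 ± 25.1 CPM in combination livers, 14.8 ± 16.2 in combination blood, 14.0 ± 24.0 in CXCR2i livers, 12.2 ± 17.4 in aPD1 livers, 8.79 ± 14.0 in CXCR2i blood, 6.74 ± 12.9 in aPD1 blood, 2.18 ± 2.88 in untreated livers and 0.428 ± 0.459 in untreated blood. No neighbours in this order differed beyond the larger SD. In blood *Nos2* rose in the combination over untreated mice by 5.75 ± 1.43 (adjusted p = 0.00838). The call held in all 32 left-out refits and all 7 other settings that tested it, with 5.86 (adjusted p = 0.0104) without the shallow untreated library. Within run set A alone *Nos2* in blood was not tested. Untreated bloods held at most 1.22 CPM, so the gene passed the filter on low counts through treated libraries. CXCR2i and aPD1 blood differed from untreated blood by 5.24 ± 1.83 (adjusted p = 0.0821) and 5.44 ± 1.94 (adjusted p = 0.424), and the CXCR2i value passed without aPD1 replicate 5 (adjusted p = 0.0413), by DESeq2 (0.0146) and without the run set term (0.0261).
In liver *Nos2* rose in the combination over untreated mice by 3.52 ± 1.075 (adjusted p = 0.0383). That call was lost in 6 of 8 other settings, among them run set A alone (3.73 ± 1.01, adjusted p = 0.0606) and the fit without the doubted libraries (3.22, adjusted p = 0.119), and without untreated replicate 1, 2, 3, 5 or 6 or combination replicate 3 or 4 (adjusted p from 0.0218 to 0.0922 over 29 refits).

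Between sites *Nos2* rose in liver over blood in CXCR2i mice by 0.53 ± 0.21 (adjusted p = 0.0446). The call was lost without animal 2, 3, 4, 5, 9 or 10 (adjusted p from 0.0253 to 0.115 over 10 refits), without the isotype libraries and without the filter. Values were 2.25 ± 1.06 in aPD1 (adjusted p = 0.118) and 0.69 ± 0.35 in combination mice (adjusted p = 0.114), where it was called without combination animal 5 (0.91, adjusted p = 0.0258), and untreated mice were not tested because *Nos2* counts were under the filter.

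*Nos2* in liver and in blood of an animal went together. CXCR2i replicate 9 and aPD1 replicate 5, each 1 animal, had the highest *Nos2* of their groups at both sites, with 80.8 CPM in liver and 47.8 CPM in blood for the first and 42.7 CPM in liver and 29.7 CPM in blood for the second. Over 29 animals, with log2(CPM + 1) centred within treatment, liver and blood *Nos2* correlated by Pearson r = 0.7955 (p = 5e-05, adjusted p = 0.00035) and Spearman rho = 0.730 (p = 0.00023, adjusted p = 0.00161; permutation tests with 100000 shuffles within treatment, two-sided, adjusted over the 7 members). Without the 2 animals farthest from the median in blood r was 0.696. *Cybb* gave r = 0.491 (p = 0.00732, adjusted p = 0.0256) and rho = 0.3975 (p = 0.0531, adjusted p = 0.186), and r = 0.509 without its 2 farthest animals. The other 5 members gave r between -0.255 and 0.190, with adjusted p of 0.515 or more in the same permutation test. Liver and blood of an animal shared a run set, and whether the run set contributed was not tested.

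**Figure D5:**
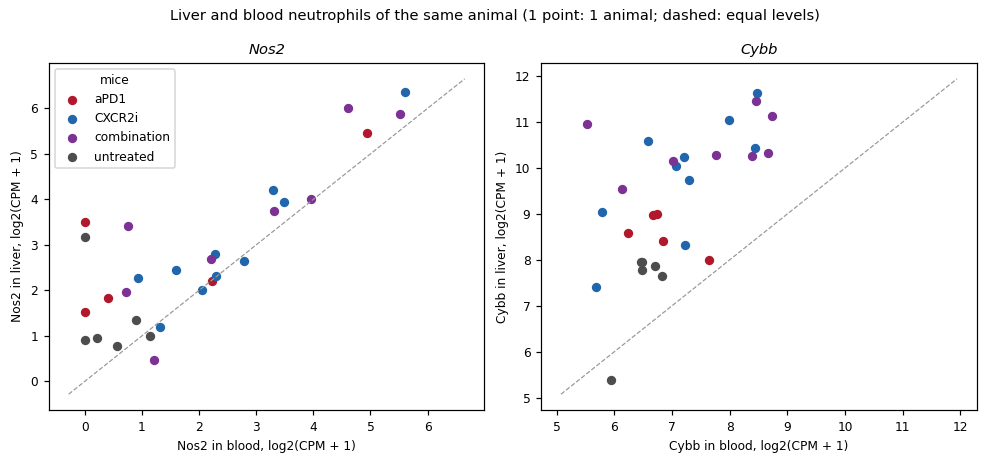
*Nos2* (left) and *Cybb* (right) in liver against blood neutrophils of the same animal as log2(CPM + 1), 1 point per animal, with the dashed line marking equal levels. *Nos2* lies above the line in 23 of 29 animals, animals high in blood are also high in liver (r = 0.7955 after centring within treatment), and all but 1 *Cybb* point lies above the line.

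The other genes of the system came from lists chosen by function. Of 12 further oxidase subunits and family members 3 or 4 had counts enough for each test. *Cybc1*, which encodes the chaperone that gp91phox needs to reach the membrane, fell in liver against blood in all 4 treatments, by 1.27 ± 0.23 on the log2 scale in aPD1, 0.77 ± 0.11 in CXCR2i, 0.87 ± 0.12 in combination and 1.12 ± 0.22 in untreated mice (adjusted p from 1e-05 to 0.0113). *Rac1*, the widely expressed relative of *Rac2*, fell by 0.74 ± 0.23, 0.49 ± 0.10 and 0.46 ± 0.12 in aPD1, CXCR2i and combination mice and was not called in untreated mice.

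Of the antioxidant genes several rose in liver against blood, 11 of 25 in aPD1, 9 of 22 in CXCR2i, 9 of 24 in combination and 7 of 22 in untreated mice, with 4, 5, 4 and 3 falling. Of all genes tested 27.5%, 26.2%, 25.3% and 21.1% were called higher and 13.2%, 22.4%, 23.9% and 9.17% lower in these comparisons. Their medians were 1.27, 0.32, 0.57 and 0.30, beside 0.44, 0.04, -0.02 and 0.14 over all genes. The peroxiredoxin gene *Prdx1* was among the 3 largest in each, with 2.92 ± 0.46 in combination (22.7 ± 13.3 CPM in liver) and 4.21 ± 0.48 in untreated mice (35.2 ± 35.6 CPM in liver), and so was the sulfiredoxin gene *Srxn1*. Markers of other liver cells rose in the same comparisons, with 5 of 5 endothelial markers in each treatment, and 4 of 5, 5 of 5, 4 of 4 and 5 of 5 hepatocyte markers in aPD1, CXCR2i, combination and untreated mice, and their part was not tested. Between combination and untreated livers 2 of 24 antioxidant genes rose and 4 fell, where 4.92% of all genes were called higher and 4.95% lower, with *Gclc*, the catalytic subunit of glutathione synthesis, at -2.37 ± 0.39 (8.85 ± 5.89 CPM in the combination and 29.3 ± 9.94 in untreated mice), *Srxn1* at -2.28 ± 0.55 and the cystine transporter gene *Slc7a11* at -1.99 ± 0.61 (adjusted p = 0.000493, 0.0117 and 0.0385).

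Genes that supply NADPH were compared beside *Cybb* in combination livers. Of 12 tested 5 rose and none fell against untreated livers, where 4.92% of all genes were called higher and 4.95% lower, with a median of 0.82 beside -0.20 over all genes. *Tkt*, the transketolase of the pentose phosphate pathway, averaged 627 ± 227 CPM in combination livers and 137 ± 66.1 in untreated livers (2.17 ± 0.38, adjusted p = 0.00101), and *G6pdx*, the enzyme that opens the pathway, 597 ± 281 and 145 ± 62.9 CPM (2.11 ± 0.46, adjusted p = 0.00549). The excess of liver over blood was also larger in combination than in untreated animals for *Tkt*, *G6pdx* and *Idh1*. It was larger by 1.95 ± 0.36, 1.835 ± 0.38 and 1.20 ± 0.26 (adjusted p = 0.00418, 0.00838 and 0.0115), where 1.24% of all genes were called higher. In blood 2 of 11 rose and 4 fell in the combination against untreated mice, where 5.72% of all genes were called higher and 6.77% lower, with *Pgd*, a later enzyme of that pathway, at -0.60 ± 0.12 (adjusted p = 0.0013).

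Among 11 myeloid transcription factors *Cebpe*, a regulator of late granulocyte maturation, averaged 43.45 ± 14.9 CPM in combination livers, against 3.29 ± 2.65 in aPD1 livers and 3.91 ± 1.66 in untreated livers (3.29 ± 0.63, adjusted p = 0.0252, and 3.72 ± 0.57, adjusted p = 0.000307). In all, 2 of 11 rose and 1 fell in combination against untreated livers, where 4.92% and 4.95% of all genes did, and the second that rose was *Klf5* (2.26 ± 0.53, adjusted p = 0.0104). *Irf8*, a partner of PU.1 at the *CYBB* promoter in human myeloid cells and also a gene of macrophages and B cells, rose in liver against blood in all 4 treatments, with 27.0 ± 19.7 CPM in combination livers and 0.468 ± 0.574 in combination blood, and 33.8 ± 38.6 CPM in untreated livers and 0.532 ± 0.860 in untreated blood.

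Of 24 genes of oxidase activation (receptors, kinases and exchange factors) 1 rose in liver against blood in CXCR2i and 2 in combination mice, while 6, 12, 12 and 7 fell in aPD1, CXCR2i, combination and untreated mice. Of all genes 13.2%, 22.4%, 23.9% and 9.17% were called lower in these comparisons. Medians of the 24 in this order were -0.997, -0.23, -0.30 and -0.63, beside 0.44, 0.04, -0.02 and 0.14 over all genes. *Fcgr3*, an activating receptor for antibody, was 239 ± 95.3 CPM in combination livers and 401 ± 77.3 in combination blood (-0.89 ± 0.15), and 222 ± 94.0 CPM in untreated livers and 506 ± 95.7 in untreated blood (-1.31 ± 0.36). Between combination and untreated livers 1 of 24 rose, where 4.92% of all genes were called higher. It was *Arhgdib*, whose product holds Rac proteins in the cytosol (1.76 ± 0.39, adjusted p = 0.00593). In blood 6 of 24 fell in the combination against untreated mice and 4 in CXCR2i mice, where 6.77% and 3.42% of all genes were called lower, with the kinase gene *Prkcd* at -0.75 ± 0.11 and -0.68 ± 0.15 (adjusted p = 6.66e-05 and 0.00713).

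For nitric oxide, 8 of 13 tested genes of arginine and cofactor supply rose in combination livers against blood and 2 fell, and 7 of 13 rose and 1 fell in untreated mice. Of all genes 25.3% were called higher and 23.9% lower in combination mice, and 21.1% higher and 9.17% lower in untreated mice. *Gch1*, the first enzyme in the synthesis of the cofactor tetrahydrobiopterin, rose in CXCR2i (1.525 ± 0.16) and untreated mice (1.23 ± 0.41), while *Pts*, a later enzyme of that route, fell in CXCR2i (-1.255 ± 0.14), combination (-2.09 ± 0.39) and untreated mice (-1.005 ± 0.24). Of 18 genes that lead to *Nos2* induction 6 rose and 9 fell in combination and 5 rose and 2 fell in untreated livers against blood, beside the same shares of all genes, with the endotoxin co-receptor gene *Cd14* at 465.7 ± 230 CPM in combination livers and 73.0 ± 32.6 in combination blood. Between combination and untreated livers 1 of the 18 fell (*Jak2*, -0.99 ± 0.32, adjusted p = 0.0496) where 4.95% of all genes did. None of the 13 genes of arginine and cofactor supply was called there, and their median was -1.03 beside -0.20 over all genes. Hepatocytes carry the arginine enzymes of the urea cycle, and 5 hepatocyte markers summed to 28.6 to 367 CPM in combination livers and 0 to 5.39 in combination blood, and to 34.7 to 559 CPM in untreated livers and 0.171 to 12.9 in untreated blood. Their part was not tested.

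The genes most like each member over the 61 libraries were found by Pearson's r of log2 CPM among 5785 genes that averaged 10 CPM or more. *Cybb* was nearest to *Anxa3* (r = 0.951), *Chil3* (0.926) and *Zmpste24* (0.921), *Cyba* to *Ralb* (0.900), *Cotl1* and *Coro1a*, and *Rac2* to *Mmp9* (0.932), *Gnai2* and *Anxa2*. *Ncf1* was nearest to *Rbm38* (0.899), *Trem1* and *Actg1*, *Ncf4* to *Anxa11* (0.909), *Irak3* and *Itgam*, and *Hvcn1* had *Sptbn1* (0.912) and *Lima1* among its nearest genes. *Nos2* was nearest to *Ddi2* (0.801), *Kit* (0.785) and *Lipg* (0.750). Some of these values differed between the 29 liver and the 32 blood libraries. *Nos2* and *Ddi2* gave 0.834 in liver and 0.885 in blood and *Nos2* and *Kit* 0.497 and 0.943, while *Ncf1* and *Trem1* gave 0.935 in liver and 0.195 in blood and *Ncf4* and *Irak3* 0.932 and 0.248. Libraries share depth, run set and site, so these values are descriptions.

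Among themselves the members formed no single group. Over 29 liver libraries *Ncf1* and *Ncf4* correlated by 0.973, *Ncf4* and *Rac2* by 0.887 and *Cybb* and *Hvcn1* by 0.857, while *Cybb* and *Ncf1* gave 0.219 and *Ncf1* and *Hvcn1* -0.046. *Nos2* stayed between -0.006 and 0.260 with the other 6. Over 32 blood libraries the highest value was 0.665 for *Cyba* and *Ncf4*, *Cybb* and *Hvcn1* gave 0.505, and *Ncf1* and *Nos2* gave -0.551. The libraries with T cell transcripts are among the liver libraries, and depth and run set are shared, so no test is given.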

How the data were processed

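Neutrophils were sorted by Ly6G from tumours and blood, per the labels' protocols. The deposited values are whole-number read counts per gene made by the authors. Per the submitters' processing notes the tools were FastQC 0.11.8, Trim Galore 0.6.4, HISAT2 2.1.0 and HTSeq 0.11.2 with the mouse genome build GRCm38, and the strand setting of the counting was not given in the sources used here. The 5 HTSeq summary rows, which held 69.2% of the entries of the neutrophil columns, entered neither library sizes nor tests, and 37607 of 37713 gene identifiers matched a symbol.

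Counts were tested with edgeR 4.0.16 in R 4.3.3 (TMM scaling, filterByExpr with a minimum count of 10 and a minimum total of 15, robust quasi-likelihood test, Benjamini-Hochberg adjustment over all genes tested, threshold 0.05). Fits of liver against blood held the animal as a block, and fits between treatments held the run set. Liver and blood libraries were paired by the animal named in the sample descriptions, and deviations from group means correlated by 0.202 on average within the 29 animals and by -0.0048 between animals. The labels give each library its own sample but not litters or cages, so p-values measure the spread between these libraries. Each standard error is the absolute log2 fold change over the square root of F, and 95% intervals follow from it. The scripts were tested on simulated counts with known changes.

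The members and gene lists were chosen with earlier results of these data known. All 7 members are named, and of each list up to 3 called genes with the largest change and at least 10 CPM in the higher group. Correlations within animals used log2(CPM + 1), and those with other genes log2 CPM with a prior count of 2. Alternatives were DESeq2 1.42.0, RLE scaling, no filter on low counts, other blocks, the run sets alone, and leaving out libraries. Results of some genes are not reported here.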

Additional observations from a re-analysis of the deposited data

Results flagged for a closer look

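Single libraries stood apart from their group in 11 of 56 combinations of member and group, by the gap to the nearest library against the whole range of the group (Dixon's 95% values), which chance gives in about 1 in 20 for independent, normally distributed values. These combinations share libraries and animals. For *Nos2* these were the highest libraries of aPD1 livers (replicate 5, 42.7 CPM), CXCR2i livers (replicate 9, 80.8 CPM), untreated livers (replicate 4, 8.03 CPM), aPD1 blood (replicate 5, 29.7 CPM) and CXCR2i blood (replicate 9, 47.8 CPM). The aPD1 libraries come from 1 animal and the CXCR2i libraries from another.

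*Hvcn1* was high in blood of the same aPD1 animal (replicate 5, 18.5 CPM). *Cybb* was low in untreated liver replicate 4 (40.9 CPM), the library that was also high in *Nos2*. *Cyba* was high in CXCR2i liver replicate 10 (320 CPM) and low in untreated blood replicate 1 (115.5 CPM), and *Ncf1* was high in combination blood replicate 9 (812 CPM) and low in untreated blood replicate 1 (548 CPM), the shallow blood library.

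The excess of *Cybb* in liver over blood was larger in combination than in untreated animals by 1.86 ± 0.49 on the log2 scale (adjusted p = 0.0397 by the edgeR interaction test). The call was lost without the doubted libraries (2.08, adjusted p = 0.121) and without the libraries labelled Vehicle or isotype (1.92, adjusted p = 0.118), and *Cybb* was not called in the other 4 comparisons of this kind (lowest adjusted p = 0.0978).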

How the results depend on the processing

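Counts of members called changed by setting. The genes called changed too, with ranges for most comparisons in the last paragraph. Beyond DESeq2 they are not matched to each setting here. For liver against blood, DESeq2 called 5 members and 7215 of 13571 genes in aPD1 mice. The fit without a filter called 3 members in CXCR2i and 4 in untreated mice. That without libraries labelled Vehicle or isotype called 3 in CXCR2i and 1 in untreated mice, and that with no replicate block 5 in combination mice. For the difference of these effects between treatments, DESeq2 called 1 for CXCR2i against untreated, 3 for the combination against untreated and 3 for the combination against aPD1. Of 14900 genes it called 441, 926 and 1202 in this order. There RLE scaling called 2 and 1 for the combination against untreated and against aPD1, no filter 2 and 2 and 1 for CXCR2i against untreated, and the fits without the doubted or without the Vehicle and isotype libraries 0 for the combination against untreated. In liver 1 was called by DESeq2 and 1 without the run set term for CXCR2i against untreated, 1 without that term for the combination against aPD1 and 1 within run set A for the combination against untreated. In blood the same settings gave 2, 2, 1 and 1. For CXCR2i against untreated, DESeq2 called 350 genes in liver and 1042 in blood.

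Leaving out 1 library or animal gave 0 to 3 members in aPD1, 4 to 5 in CXCR2i, 3 to 4 in combination and 1 to 4 in untreated mice for liver against blood. Against untreated mice it gave 2 to 4 for the combination in liver, 2 to 3 in blood and 0 to 2 for CXCR2i in blood, and for the difference between treatments 1 to 2 (combination against untreated) and 0 to 1 (combination against aPD1). For that difference only the 5 aPD1 animals were left out in turn, and the others were not run. The share of all genes called in each of these refits is not given here, so the counts describe the settings. *Ncf1* in aPD1 livers against blood changed sign without the doubted libraries (0.78). Over all alternatives of member values 815 kept their side of the threshold, 29 gained and 23 lost the call and 1 changed sign with a call. With a library left out 2446 kept their side, 9 gained and 52 lost the call. Values not called in either fit were counted as kept whatever their sign, so their changes of sign are not counted here. The cause of these changes was not tested.

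Title replicate numbers did not pair libraries (mean correlation of deviations 0.0184 in liver and -0.0169 in blood). With the title number as a replicate block, combination against untreated mice gave *Nos2* 3.56 (adjusted p = 0.0731 by edgeR) and *Cybb* 3.32 (0.000565) in liver and *Cybb* 1.16 (0.122) in blood. The genes called for the combination against untreated numbered 1370 in liver (307 to 2262 over 8 settings), 1457 in blood (781 to 1874) and 269 for the difference (62 to 926 over 5). For CXCR2i against untreated they numbered 17 in liver (0 to 645 over 7 settings), 762 in blood (90 to 1770) and 28 for the difference (0 to 503). For the combination against aPD1 they numbered 28 in liver (0 to 654), 2 in blood (0 to 498) and 369 for the difference (79 to 1202). For liver against blood they numbered 5519 in aPD1 (2560 to 7215), 5696 in CXCR2i (2703 to 5884) and 3703 in untreated mice (2392 to 4063). RLE scaling moved the median of all genes by 0.13 in aPD1 livers against untreated livers, by -0.21 in combination against aPD1 livers and by 0.13 in untreated livers against blood. Levels of *Nos2* under 1 CPM rest on few counts.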
